A study of Homo sapiens with 54 samples.

Results

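Compound Kushen Injection (CKI), a medicine prepared from 2 plants, was compared here in 4 versions that each lacked 1 known component, with the mixture without trifolirhizin set against the other 3. The cells were MDA-MB-231, an established human line derived from breast cancer, and every group considered here was harvested at 48 h in the batch the labels call 2. Of the 54 libraries of the series, 12 belong to this comparison, with 3 each for CKI without trifolirhizin (N_Tri), without oxymatrine (N_Omt), without macrozamin (N_Mac) and without N-methylcytisine (N_Nme). Each mixture was fractionated, recombined and given at the equivalent of 2 mg/ml of CKI. The 3 libraries of whole CKI at 2 mg/ml and the 3 of untreated cells (UT) from the same batch and time entered the same fit and give reference levels. All groups share the cell line, medium and time, and differ in the mixture alone as far as the labels say, but recombined mixtures and the whole injection also differ in their handling. The question is what the cells did when trifolirhizin rather than another single component was absent, so what every recombined mixture shares is set aside.

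Trifolirhizin is a pterocarpan glucoside, a flavonoid-type molecule of the Sophora root, whereas oxymatrine and N-methylcytisine are quinolizidine-type alkaloids and macrozamin is an azoxyglycoside. Many plant flavonoids meet the aryl hydrocarbon receptor (AHR), a ligand-activated transcription factor that turns on cytochrome P450 genes such as CYP1A1 and CYP1B1. Fatty acids act through other nuclear receptors, which turn on genes of lipid droplets and fatty acid oxidation, among them PLIN2 and CPT1A. Both systems, with cell cycle, chaperone and cytokine genes, are described below for the 4 mixtures.

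Total counts of the 12 libraries were between 17673537 and 24603876. The MDA-MB-231 markers were high in all 18 libraries, with a summed level between 3242 and 5973 CPM. CPM are read counts scaled to a common library size by the TMM method. The 8 luminal markers summed to 315 to 783 CPM and were mixed. ESR1 and PGR had at most 8 and 2 reads in a library, and FOXA1 and CDH1 at most 34 and 43. KRT19 had 6198 to 17743 reads, EPCAM 185 to 619, ERBB3 197 to 408 and GATA3 105 to 459. The name of the line is therefore taken from the labels. Genes of fibroblast-type cells separated the libraries in another way. GREM1, a secreted antagonist of bone morphogenetic proteins (BMPs), had 0, 1 and 0 reads in the N_Tri libraries, 0 in N_Nme replicate 3 and 1 in N_Omt replicate 3, against 14 to 30 in each of the other 13 libraries. DCN, the matrix proteoglycan decorin, had 1, 0 and 0 reads in N_Tri, 0 in N_Nme 3 and 2 in N_Omt 3, against 10 to 17 elsewhere. MMP2, a gelatinase, had 2, 7 and 8 reads in N_Tri, 1 in N_Nme 3 and 2 in N_Omt 3, against 38 to 78 elsewhere. POSTN and THY1 were likewise at 0 or 1 read in these 5 libraries, and MME had 3 to 6 reads there against 8 to 21 in the other 13, CKI and UT included. COL1A1, LUM and PDGFRB, also made by fibroblasts, were present in all 18. LUM had 26, 57 and 48 reads in N_Tri and 17, 27 and 22 in N_Nme, and PDGFRB 58, 95 and 67 and 52, 48 and 69. Of the 8 fibroblast markers of the list, 6 could be tested, and 5 of these were lower in N_Tri than in the mean of the other mixtures, while THY1 and FAP were too low to test. By group, 5 were lower and 0 higher against N_Omt, 4 and 0 against N_Mac and 3 and 1 against N_Nme. Of all genes tested, 29.1%, 20.3% and 11.5% were lower in these 3 comparisons and 30.6%, 16.6% and 9.01% higher. Against the mean 18.5% were lower. The summed level of the 8 was 20.0 to 20.4 CPM in N_Tri, 14.7 to 24.1 in N_Nme, 28.6 to 37.5 in N_Omt, 27.4 to 30.4 in N_Mac, 40.8 to 42.0 in CKI and 34.5 to 45.1 in UT. GREM1, POSTN, MME and MMP2 are not on that list and were chosen after their values were seen. The growth protocol of the labels also names HFF, a line of human fibroblasts. Fewer cells of such a type and less of their RNA cannot be told apart in these bulk libraries, and their part in the results below was not tested.

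**Figure D1:**
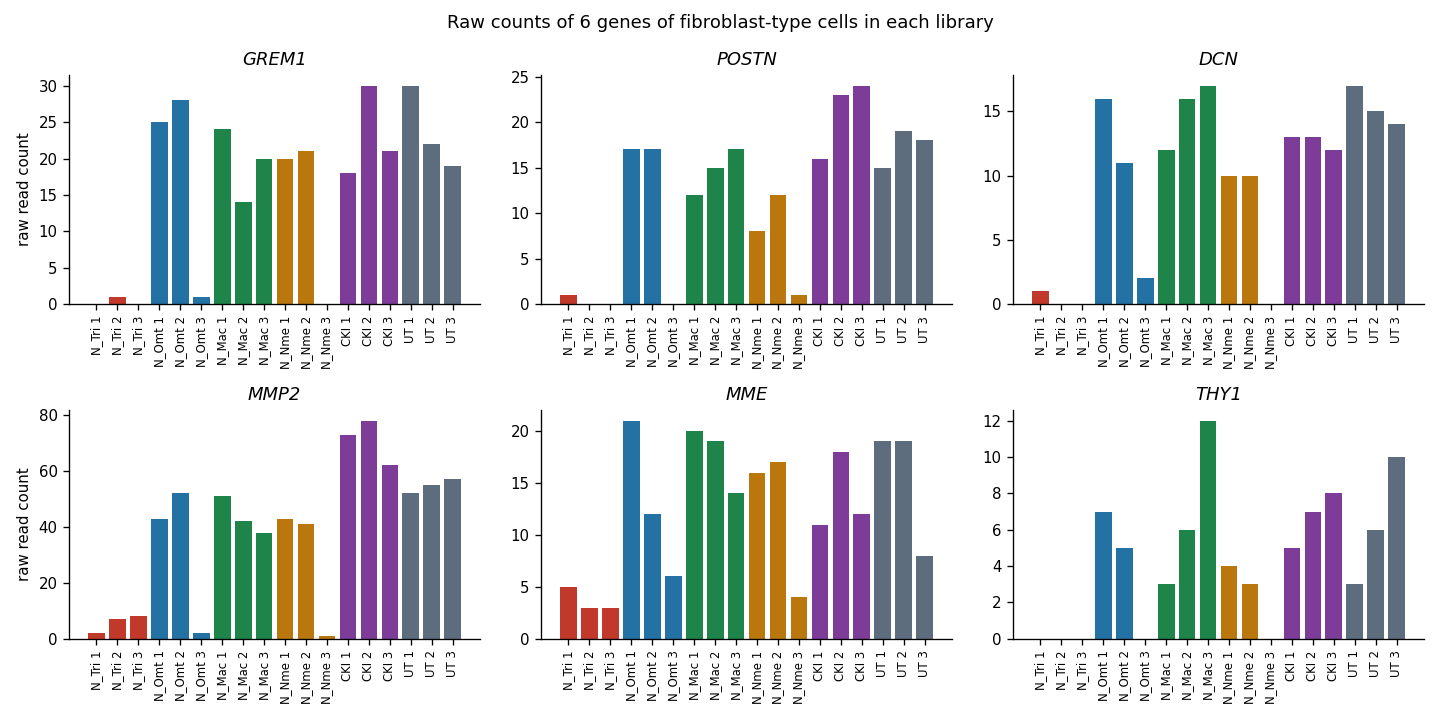
Raw read counts (vertical axis) of 6 genes of fibroblast-type cells in each of the 18 libraries (horizontal axis, coloured by group). The 3 N_Tri libraries, N_Omt 3 and N_Nme 3 are the lowest for each gene, for example 0, 1 and 0 reads of GREM1 in N_Tri, while the other 13 libraries have 14 to 30.

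N_Nme 3 also lay nearer to N_Tri than its own group did over many other genes. The cause was not tested, so each result against N_Nme is given below with all 3 libraries and, where it turns on it, with N_Nme 3 alone. N_Omt 3 showed no such shift over the genes called against all 3 mixtures, where its median log2 levels were -0.014 and 0.046.

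N_Tri differed from the mean of the other 3 mixtures in 5778 of 15115 genes tested, 38.2% of them, by edgeR's quasi-likelihood test at a Benjamini-Hochberg adjusted p under 0.05. Of these, 2975 genes were higher in N_Tri (19.7%) and 2803 lower (18.5%). The differences were small: 82 genes (0.543%) also differed by a log2 fold change of at least 1. Against each group apart, 9013 genes were called against N_Omt (59.6%), 5567 against N_Mac (36.8%) and 3095 against N_Nme (20.5%). Higher and lower in N_Tri were 30.6% and 29.1% of all genes against N_Omt, 16.6% and 20.3% against N_Mac and 9.01% and 11.5% against N_Nme. At a log2 fold change of at least 1 the counts came down to 1154 (7.63%), 173 (1.14%) and 59 (0.39%). N_Tri had the most differences from N_Omt and the fewest from N_Nme by either count. The 3 comparisons share the N_Tri libraries and are not independent. With N_Nme 3 as the only N_Nme library, 341 genes were called against it, where N_Nme 1 alone gave 3401 and N_Nme 2 alone 1708, under the assumption that a single library varies as the other groups do. Against N_Nme the split of 1362 genes higher and 1733 lower also turned to 1742 and 1414 with RLE size factors.

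A difference from the mean of 3 groups can come from 1 of them, so genes called in the same direction against each of the 3 mixtures were counted as well. There were 650 such genes (4.3% of those tested), 236 higher in N_Tri (1.56%) and 414 lower (2.74%). With RLE size factors the split was 337 and 316, so the direction that prevails depends on the scaling, whereas 481 of the 650 genes were called under all 3 other scalings. The median of the smallest of the 3 absolute log2 fold changes was 0.185 among the genes higher and 0.217 among those lower. The expression of the N_Tri libraries lay above all 9 others in 495 genes (3.27%) and below all 9 in 539 (3.57%), and 213 of the 236 and 306 of the 414 genes were among these. Over the 236 genes, the median log2 level relative to the mean of the 9 other libraries was 0.263 to 0.285 in N_Tri, -0.021 and 0.041 in N_Nme 1 and 2, and 0.134 in N_Nme 3. Over the 414 genes it was -0.326 to -0.297 in N_Tri, 0.064 and -0.060 in N_Nme 1 and 2, and -0.205 in N_Nme 3. N_Nme 3 thus lay between N_Tri and the other 8 libraries in both sets. Without N_Nme 3 the count was 1099, without N_Nme 1 it was 257, without N_Nme 2 428, without N_Tri 2 345 and without N_Tri 3 326. With N_Nme 3 as the only library of its group, 17 genes were left, 15 of them among the 650, and with N_Omt 3 also the only one of its group 8 were left, all among the 650.

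**Figure D2:**
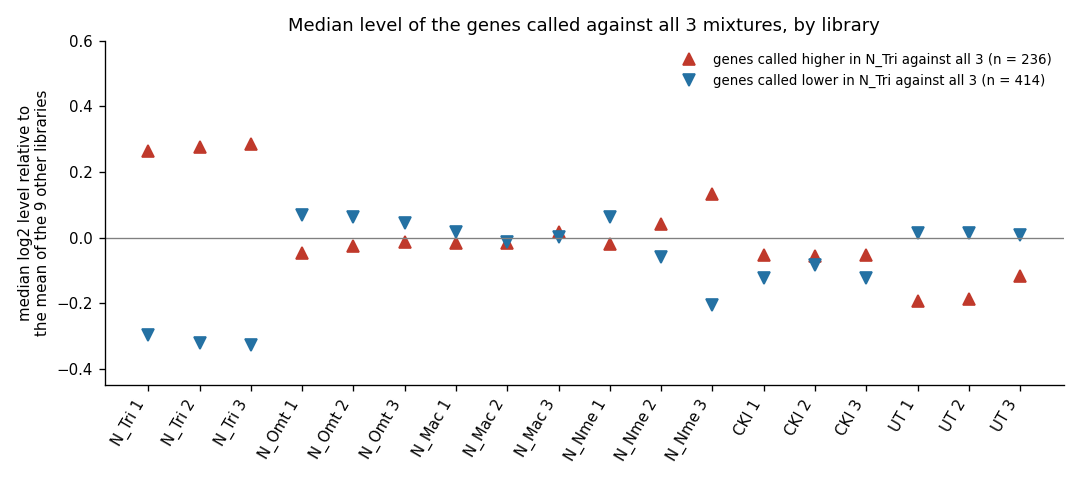
Median log2 level, relative to the mean of the 9 N_Omt, N_Mac and N_Nme libraries (vertical axis), of the 236 genes called higher (red) and the 414 called lower (blue) in N_Tri against all 3 mixtures, by library. The genes were chosen on these libraries, so the distance of N_Tri is a description, and N_Nme 3 lies at 0.134 and -0.205, between N_Tri and the other 8.

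Among the 650 genes, 4 were called against all 3 mixtures in each of 24 other settings without a fold change threshold, those with N_Nme 3 and N_Omt 3 as single libraries included. They were CYP1B1, UGCG and SHISA2, which were higher in N_Tri, and PLIN2, which was lower. CYP1B1, a cytochrome P450 that oxidises oestrogens and polycyclic compounds, stood at 454, 467 and 488 CPM in N_Tri, 295, 313 and 305 in N_Omt, 362, 378 and 378 in N_Mac and 352, 375 and 383 in N_Nme. All 3 N_Tri libraries were above all 9 others. The log2 fold changes were 0.63 ± 0.0488 (adjusted p = 2.56e-12) against N_Omt, 0.33 ± 0.0486 (adjusted p = 4.92e-06) against N_Mac and 0.34 ± 0.0485 (adjusted p = 1.2e-05) against N_Nme. Whole CKI held CYP1B1 at 1120, 1125 and 1106 CPM and UT at 159, 153 and 168, so N_Tri was the highest of the 4 mixtures and still below CKI. UGCG, the enzyme that makes glucosylceramide, the first step of most glycosphingolipids, was at 408, 422 and 423 CPM in N_Tri, 334, 356 and 348 in N_Omt, 357, 357 and 386 in N_Mac and 288, 306 and 314 in N_Nme. Its log2 fold changes were 0.27, 0.19 and 0.47 against N_Omt, N_Mac and N_Nme, with adjusted p-values of 1.17e-05, 0.00248 and 7.38e-08. SHISA2, a protein of the endoplasmic reticulum that holds back FGF and WNT receptors, was at 26.6, 28.3 and 30.2 CPM in N_Tri, 20.4, 20.5 and 21.7 in N_Omt, 22.0, 20.2 and 19.4 in N_Mac and 18.3, 19.1 and 19.7 in N_Nme. Its log2 fold changes were 0.45, 0.47 and 0.58 (adjusted p = 3.07e-06, 9.5e-06 and 1.92e-06). UGCG and SHISA2 also did not overlap between N_Tri and the other 9 libraries.

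PLIN2, which coats lipid droplets, was at 195, 192 and 188 CPM in N_Tri, 403, 398 and 409.5 in N_Omt, 352, 349 and 359.9 in N_Mac and 295, 272 and 238 in N_Nme. N_Tri was below all 9 other libraries, and N_Nme 3 was the lowest of those 9. The log2 fold changes were -1.08 ± 0.0655 (adjusted p = 8.52e-15) against N_Omt, -0.89 ± 0.0654 (adjusted p = 2.56e-11) against N_Mac and -0.49 ± 0.0654 (adjusted p = 5.52e-06) against N_Nme. With 68.8, 71.8 and 68.4 CPM in CKI and 68.0, 56.0 and 73.6 in UT, every mixture stood above both references, and N_Tri least so. SPRY2 and SMIM7 were called in 23 of the 24 settings. SPRY2, a feedback inhibitor of receptor tyrosine kinase signalling, was at 123 CPM in N_Tri on average against 97.8, 112 and 102 in N_Omt, N_Mac and N_Nme. SMIM7 was lower, at 73.8 against 83.9, 93.6 and 99.8. These genes were picked from the 650 after their values were seen, as were those in the next paragraphs that no fixed rule names.

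**Figure D3:**
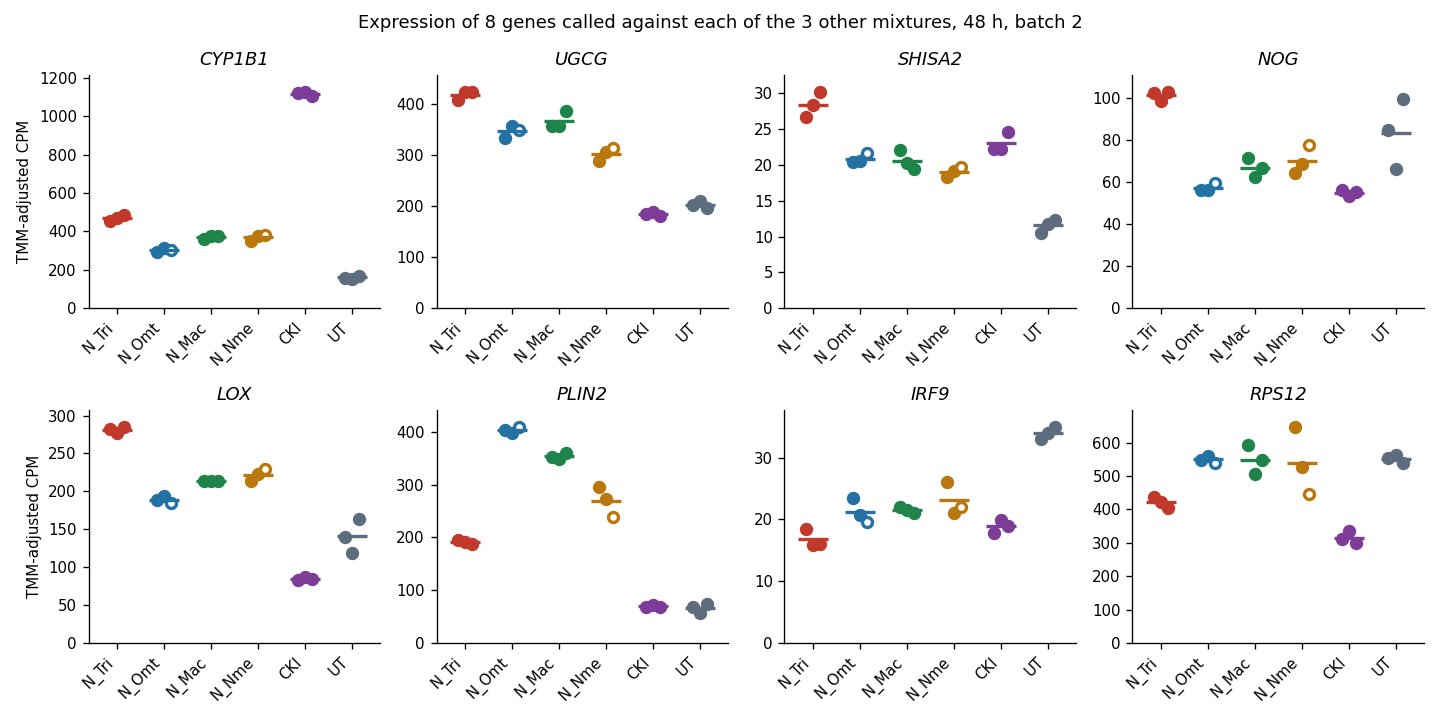
TMM-adjusted CPM (vertical axes, from 0) of 8 genes called against each of the 3 other mixtures, 1 point per library and a line at each group mean (n = 3), with N_Omt 3 and N_Nme 3 as open points. CYP1B1, UGCG, SHISA2, NOG and LOX lie above the other 9 mixture libraries in N_Tri, and PLIN2, IRF9 and RPS12 below them.

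Ranked by the smallest of the 3 log2 fold changes, the first 10 of the genes higher in N_Tri with a mean of at least 5 CPM were NOG, SHISA2, SPATA2L, DUSP8, COL18A1, SCX, SLC18A2, LOX, CYP1B1 and COMTD1. NOG encodes noggin, a secreted BMP antagonist. It was at 102, 98.7 and 103 CPM in N_Tri, 56.2, 56.1 and 59.7 in N_Omt, 71.4, 62.5 and 66.7 in N_Mac and 64.5, 68.7 and 77.5 in N_Nme, with no overlap, and its log2 fold changes were 0.82, 0.60 and 0.53 against N_Omt, N_Mac and N_Nme (adjusted p = 8.94e-10, 2.49e-06 and 5.46e-05). LOX, the lysyl oxidase that cross-links collagen, was at 282, 277 and 285 CPM in N_Tri, 188, 194 and 185 in N_Omt, 214, 214 and 214 in N_Mac and 213, 224 and 229 in N_Nme, with log2 fold changes of 0.57, 0.39 and 0.34 (adjusted p = 3.69e-09, 1.54e-05 and 0.000312). COL18A1, a basement membrane collagen, was at 160.2 CPM in N_Tri against 120.1, 107 and 123. The tendon transcription factor SCX was at 17.4 against 13.6, 7.91 and 12.8, and its libraries overlapped. LOXL2, the membrane protease MMP14, the collagen prolyl hydroxylase subunit P4HA1 and the receptor TGFBR1 were also called higher against all 3, with smallest log2 fold changes of 0.15, 0.20, 0.14 and 0.17. The phosphatase DUSP8, which acts on MAP kinases, was at 26.9 CPM against 20.4, 19.8 and 18.3. MMP14 was the only one of 15 matrix and protease genes on the list, and TGFBR1 the only one of 13 TGF-beta pathway genes, to be called against all 3. Among all genes tested 4.3% were called so, and counts of 1 in such short lists lie near that share. NOG, LOX, COL18A1, MMP14, TGFBR1 and DUSP8 remained called in 22 of the 24 settings and were lost in both with N_Nme 3 as a single library, where NOG in N_Nme 3 was 77.5 CPM. SCX was called in 16, LOXL2 in 18 and P4HA1 in 18 of the 24, and each of these also lost its call when some single libraries were left out (7, 8 and 9 of 12 kept).

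Heat shock chaperones, which refold damaged proteins, were higher in part. Of 10 on the list, 7 were higher and 1 lower against N_Omt, 6 and 0 against N_Mac and 3 and 2 against N_Nme, and HSPA1A, HSPA1B and HSPH1 were called higher against all 3. The shares of all genes tested, which apply to every list below, were 30.6%, 16.6% and 9.01% higher and 29.1%, 20.3% and 11.5% lower. HSPA1A, the inducible HSP70, was at 1010, 999 and 926 CPM in N_Tri, 413, 382 and 408 in N_Omt, 827, 724 and 770.3 in N_Mac and 832, 807 and 909 in N_Nme. N_Tri was the highest of the 4 mixtures, and the log2 fold change ranged from 1.29 against N_Omt to 0.20 against N_Nme. HSPA1A and HSPA1B are near-identical copies and their counts are not independent. HSPA1A, HSPA1B and HSPH1 each kept the call against all 3 in 8 of 12 settings with 1 library left out, and none of the list's members was called against N_Nme 3 alone.

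Targets of the lipid-sensing receptors LXR and PPAR were lower in N_Tri, fewest of them against N_Nme. Of 9 tested targets of LXR, the receptor for oxysterols, and PPAR, that for fatty acids, 8 were lower and 0 higher against N_Omt, 6 and 0 against N_Mac and 3 and 0 against N_Nme. The list's median log2 fold change was -1.01, -0.36 and -0.055, where that of all genes was 0.00245, -0.0213 and -0.00555. PLIN2 and CPT1A were called against all 3. CPT1A, which brings long-chain fatty acids into mitochondria, was at 35.9, 33.5 and 37.0 CPM in N_Tri, 70.9, 72.5 and 70.7 in N_Omt, 45.8, 52.1 and 44.4 in N_Mac and 42.1, 41.3 and 37.1 in N_Nme, with log2 fold changes of -1.01, -0.42 and -0.18, and lost its call against 1 or more mixtures under each of the 3 other scalings. LPCAT3, which loads polyunsaturated fatty acids into phospholipids, was at 18.8 CPM against 25.2, 27.7 and 24.7 in N_Omt, N_Mac and N_Nme. ACACA, the acetyl-CoA carboxylase of fatty acid synthesis, was at 66.5 against 80.8, 78.6 and 79.1. ACSL5, which activates fatty acids, and ACAA2, a thiolase of their oxidation, had log2 fold changes of -0.25, -0.21 and -0.27 and of -0.30, -0.40 and -0.31. LPCAT3, ACACA, ACSL5 and ACAA2 were lost only in the 2 settings with N_Nme 3 as a single library.

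Of the 17 genes on the interferon response list, 9 were lower and 2 higher against N_Omt, 2 and 6 against N_Mac and 2 and 0 against N_Nme, and none was called against all 3. In these comparisons 59.6%, 36.8% and 20.5% of all genes tested were called in either direction. Some genes of interferon signalling that the list does not hold were lower against each, and they were picked after their values were seen. IRF9, the DNA-binding subunit of the ISGF3 complex, was at 18.4, 15.9 and 16.1 CPM in N_Tri, 23.5, 20.7 and 19.6 in N_Omt, 22.0, 21.6 and 21.0 in N_Mac and 26.1, 21.1 and 22.1 in N_Nme, with log2 fold changes of -0.35, -0.36 and -0.46 (adjusted p = 0.000598, 0.00101 and 0.000205). It kept its call with N_Nme 3 as the only library of its group and lost it with N_Omt 3 also the only one of its group. STAT2, its partner in ISGF3, was at 96.9 CPM against 132, 122 and 119.8. APOL1, an apolipoprotein, was at 5.80 against 9.98, 8.16 and 8.73. The E3 ligase TRIM21 was at 9.32 against 12.2, 12.8 and 12.4, and the RNA editor ADAR at 176 against 231, 212 and 209. Unlike IRF9, STAT2, APOL1, TRIM21 and ADAR lost their calls in both settings with N_Nme 3 as a single library. All 5 genes, IRF9 included, lay in N_Tri below every one of the 9 other libraries. So did 306 of the 414 genes called lower against all 3, from which they were picked, and 3.57% of all genes tested. The lack of overlap is therefore a description.

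Of 15 cytosolic ribosomal proteins, 10 were lower in N_Tri against N_Omt, 10 against N_Mac and 5 against N_Nme, and none was higher. The medians were -0.28, -0.29 and -0.15. RPS12 was at 438, 423 and 404 CPM in N_Tri, 548, 561 and 540.2 in N_Omt, 594, 507 and 547 in N_Mac and 647, 527 and 446 in N_Nme, and RPS27 at 793 CPM against 1002, 983 and 980.5. RPL11 and RPL32 were also called lower against all 3, as was RPL37A, which the list does not hold, at 514 CPM against 794, 796 and 673. N_Nme spread widely here: RPS12 was at 446 in N_Nme 3, and against that library alone none of the 15 genes was called and the median was 0.028. RPL32 was called in 8 of the 24 settings, under none of the 3 other scalings and in 3 of 12 with 1 library left out, and RPL11 in 17 of the 24, where RPS12 and RPS27 were called in 22. Ribosomal protein genes have many processed copies, among which counting can split reads. Among 11 proteasome subunits, PSMB7, PSMC4 and PSMD11 were lower and PSMD12 higher against all 3, and none was called against N_Nme 3 alone. These 4 were called in 19, 19, 21 and 14 of the 24 settings. Of all genes tested, 4.3% were called against all 3. The proteasome list had 3 genes higher and 6 lower against N_Omt, 2 and 5 against N_Mac and 1 and 4 against N_Nme. Ranked in the same way as the rises, the first 10 falls above 5 CPM were APOL1, PLIN2, C20orf96, TRNAU1AP, FAM24B, LPCAT3, NRSN2-AS1, RPL37A, TRIM21 and SLC29A3. Of 19 genes of DNA replication, MCM3 and MCM4, subunits of the replicative helicase, were lower against all 3, as were 2.74% of all genes tested. MCM3 was at 65.3 CPM against 75.5, 102 and 78.4 and MCM4 at 31.5 against 38.7, 45.8 and 40.2. They were called in 20 and 21 of the 24 settings and lost their calls in both with N_Nme 3 as a single library. The list had 14 genes higher and 3 lower against N_Omt, 0 and 15 against N_Mac and 0 and 6 against N_Nme.

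Among all 650 genes, whatever their level, the 10 with the largest smallest difference were GREM1, POSTN, DCN, MMP2, MME, COL3A1, COL1A2, CTSK, RALY-AS1 and MILR1, all lower in N_Tri and all under 5 CPM. The first 8 are genes of fibroblast-type cells, and 7 genes in all passed a log2 fold change of 1 against each mixture. COL1A2, a chain of type I collagen, had 18, 25 and 22 reads in N_Tri, 88, 81 and 22 in N_Omt, 73, 82 and 117 in N_Mac and 82, 87 and 17 in N_Nme. CTSK, a collagen-degrading cathepsin, had 30, 62 and 32 reads in N_Tri, 106, 124 and 52 in N_Omt, 80, 79 and 89 in N_Mac and 89, 91 and 45 in N_Nme. In both, replicate 3 of N_Omt and of N_Nme was the lowest of its group, and N_Tri overlapped those libraries. With N_Nme 3 as the only N_Nme library none of these 10 genes is among those called against all 3. No fitted fold change is given for the genes with single reads.

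Against N_Omt, N_Tri held more of the cell cycle transcripts. Of 17 mitosis genes, 16 were higher and 0 lower, with a median log2 fold change of 1.40, and of 19 genes of DNA replication 14 were higher and 3 lower, with a median of 0.79. CDK1, the mitotic kinase, was at 45.1, 47.6 and 39.8 CPM in N_Tri and 5.25, 5.89 and 6.74 in N_Omt, a log2 fold change of 2.90 ± 0.106 (SE) with an adjusted p of 4.51e-20. Rankings within 1 comparison cover called genes whose mean over the 12 libraries was 5 CPM or more, since larger folds occurred at lower levels. The largest rises above that level were those of SPC25, a kinetochore subunit, SHCBP1 and RAD51AP1, a recombination factor, with 3.57, 3.52 and 3.33. Chaperones of the endoplasmic reticulum (ER) were higher too, 11 of 12, with a median of 0.76. S100P, the small nucleolar RNA gene SNORA71C and ANGPTL4, a PPAR target that inhibits lipoprotein lipase, were the largest falls above 5 CPM, with -2.84, -2.58 and -2.31. ANGPTL4 was at 7.22, 6.65 and 7.16 CPM in N_Tri and 36.2, 33.2 and 34.4 in N_Omt. Of 17 cholesterol synthesis genes, 16 were lower and 1 higher, with a median log2 fold change of -0.46. Among AHR targets CYP1A1 went the other way from CYP1B1, with 6.55, 4.86 and 5.25 CPM in N_Tri and 12.1, 11.7 and 11.7 in N_Omt, a difference of -1.11 ± 0.113 on the log2 scale (adjusted p = 7.6e-10).

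Against N_Mac, cytokine and replication genes were lower in N_Tri. Of 16 cytokines, chemokines and NF-kB feedback genes, 14 were lower and 0 higher, with a median of -0.59. IL6 was at 61.7, 62.3 and 67.8 CPM in N_Tri and 179, 183 and 176 in N_Mac, a difference of -1.49 ± 0.0526 on the log2 scale (adjusted p = 1.68e-19). CXCL8, the neutrophil chemokine IL-8, was at 1203, 1230 and 1397 and 2273, 2380 and 2273, and the largest falls above 5 CPM were those of CSF3 (-2.14), IL6 and SAA1, an acute-phase protein (-1.34). Of 19 replication genes 15 were lower and 0 higher, with a median of -0.34. Mitosis genes did not share this, as 1 was higher and 4 lower with a median of -0.022. Above 5 CPM, the largest rises were those of SCX, the gene listed as MIR663A and C9orf84, with 1.14, 1.10 and 0.92. CYP1A1 was lower by a log2 fold change of -0.87 ± 0.116 (adjusted p = 1.4e-06).

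Against N_Nme, cytokine genes were higher and mitosis and ER chaperone genes lower. Of the 16 cytokine genes 14 were higher and 0 lower in N_Tri, with a median of 0.44. IL6 was at 39.1, 39.1 and 34.6 CPM in N_Nme, below N_Tri by 0.77 ± 0.0568 (log2, adjusted p = 7.95e-11), and IL1B at 37.5, 41.6 and 31.5 against 69.9, 67.1 and 77.5 in N_Tri. Of 13 immediate early genes 9 were higher, FOS the most, at 26.8, 26.2 and 59.4 CPM in N_Tri and 12.6, 14.5 and 12.7 in N_Nme. The size of the FOS difference owes much to N_Tri 3. That library was also the highest of N_Tri for EGR1 (109, 112 and 231 CPM) and FOSB (4.77, 4.26 and 7.76 CPM). Mitosis genes were lower, 16 of 17, with a median of -0.48. MKI67, the proliferation marker Ki-67, was at 39.8, 41.2 and 37.0 CPM in N_Tri and 61.8, 63.2 and 59.5 in N_Nme, a difference of -0.64 ± 0.0639 on the log2 scale (adjusted p = 4.83e-08), and CIT, the citron kinase of cytokinesis, had the third largest fall above 5 CPM (-0.84), after LAMP3 (-0.91) and AGR2 (-0.91), an ER disulfide isomerase. ER chaperones were lower, 10 of 12, with a median of -0.42, HSP90B1 at 2357, 2365 and 2241 CPM in N_Tri and 3056, 3273 and 3262 in N_Nme. FOS, DHRS3, a retinaldehyde reductase, and C9orf84 were the largest rises above 5 CPM, with 1.50, 1.21 and 1.07. These groups held against N_Nme 3 alone in direction, with medians of 0.45 for cytokines (10 higher), -0.44 for mitosis (13 lower) and -0.39 for ER chaperones (4 lower). CYP1A1 was at 3.50, 3.53 and 4.53 CPM in N_Nme, 0.50 ± 0.136 (log2, adjusted p = 0.00956) below N_Tri.

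**Figure D4:**
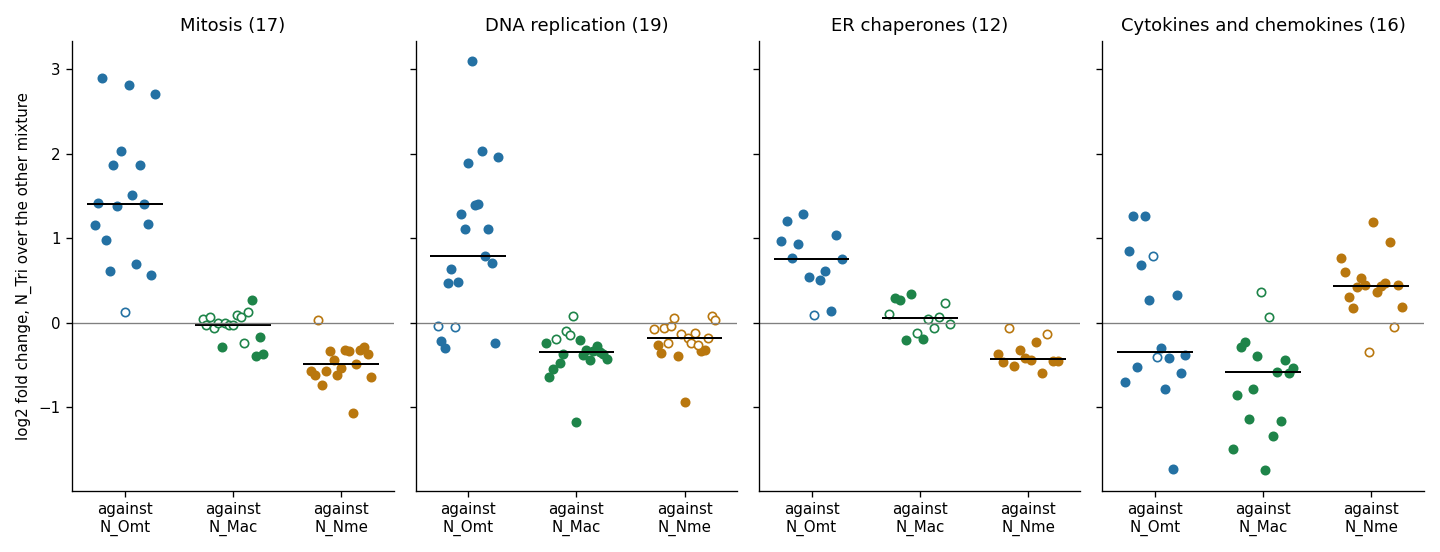
Log2 fold change of N_Tri over N_Omt, N_Mac and N_Nme (vertical axis) for each tested gene of 4 lists, with filled points for genes called at an adjusted p under 0.05, open points for the others and a line at the median. Mitosis genes have medians of 1.40, -0.022 and -0.48, and cytokine genes of -0.34, -0.59 and 0.44.

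In the mean of the 3 mixtures such opposite differences were averaged. Of 17 mitosis genes 11 were higher and 0 lower than the mean, although 16 were lower than in N_Nme, and CDK1, with 1.00 over the mean the largest rise among genes of at least 5 CPM that had the same sign against each mixture, had log2 fold changes of 2.90, 0.074 and 0.029 against N_Omt, N_Mac and N_Nme. Among the 12 largest rises so limited, SCX, NOG and HSPA1A were called against all 3, while PTPN22, CCDC107, ARVCF, RNF128, ATAD5, ENDOG, PROB1 and NEGR1 were not. Among the 12 largest falls so limited, PLIN2, FAM24B, SLC29A3 and APOL1 were called against all 3, FAM24B in 14 and SLC29A3 in 11 of the 24 settings. RARRES3, SAA1, LINC02009, IFITM1, LOC101929243 and APCDD1L-DT were not, and RARRES3, the largest at -0.85, was -0.14 against N_Nme.

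**Figure D5:**
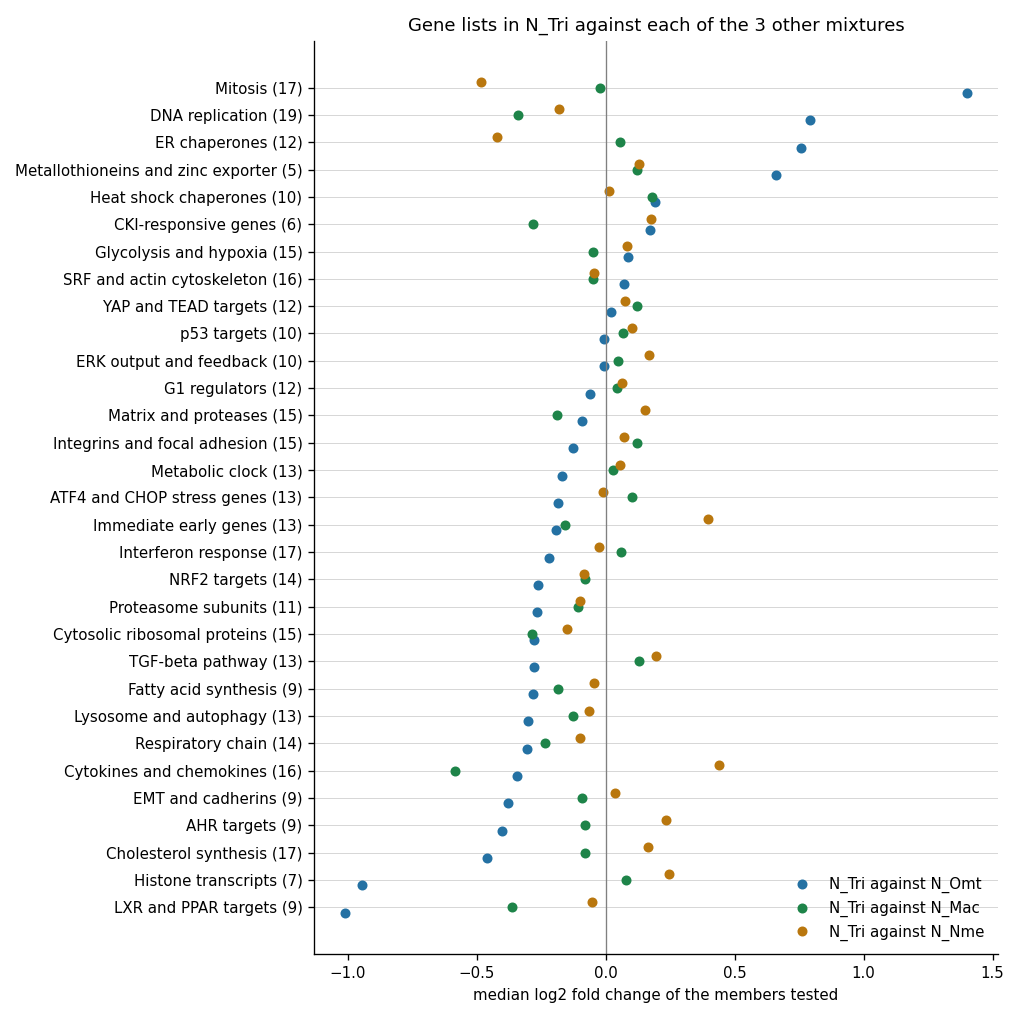
Median log2 fold change (horizontal axis) of the tested members of each gene list, number in brackets, in N_Tri against N_Omt, N_Mac and N_Nme. The points of a list often lie on opposite sides of 0, as for mitosis and cytokines, while those of ribosomal proteins (-0.28, -0.29, -0.15) and of LXR and PPAR targets are all below it.

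Against whole CKI, 10789 genes were called (71.4%), 5208 higher in N_Tri (34.5%) and 5581 lower (36.9%), and 2449 (16.2%) by a log2 fold change of at least 1. Above 5 CPM, the largest rises were those of CXCL8, OLAH and IL24, with 5.89, 5.85 and 4.56, CXCL8 being at 20.7, 23.2 and 20.4 CPM in CKI and 86.8, 69.7 and 116 in UT. The largest falls above 5 CPM were those of RARRES2, CYP1A1 and BMP4, with -3.84, -3.73 and -3.20. These rises and falls were not particular to N_Tri, as the means of N_Omt, N_Mac and N_Nme lay on the same side of CKI. In that order CXCL8 was at 708, 2309 and 843 CPM, OLAH at 3.35, 3.94 and 7.06 and IL24 at 408, 708 and 402. RARRES2 was at 11.5, 6.59 and 2.81 and BMP4 at 45.0, 25.8 and 22.3. The CKI means of these 5 genes were 21.5, 0.0907, 24.4, 58.1 and 225 CPM. CYP1A1 was at 73.8, 68.7 and 76.6 CPM in CKI and 0.370, 0.669 and 0.821 in UT, so all 4 mixtures lay between the references. Of the other genes that respond to CKI in these data, ASB2 was at 5.38 CPM in N_Tri and 35.8 in CKI, the cholesterol exporter ABCA1 at 58.0 and 9.06, the hyaluronan-binding protein CEMIP at 32.1 and 12.1 and IGFBP1 at 23.4 and 4.45. The mitosis and replication lists were lower than in CKI, 17 of 17 and 19 of 19 genes. Among the genes called against all 3 mixtures, CYP1B1 and PLIN2 stood nearer to their CKI levels in N_Tri than in any other mixture, and LOX, NOG, UGCG and DUSP8 farther from them, with CKI means of 85.0, 55.0, 184 and 4.12 CPM. These genes were chosen for their distance from the 3 mixtures, so the order is a description.

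Transcripts of the genes that stood apart from all 3 mixtures differed in length and base composition between the directions. The longest transcript of the genes higher in N_Tri had a median length of 4029 bases and a median GC content of 41.0%, against 3088.5 bases and 50.7% in the genes lower and 3496 bases and 48.5% over all genes tested. Their median levels also differed from those of all genes tested, at 79.9 CPM in the genes higher and 71.8 in the genes lower, against 22.2. Length and GC content were matched by symbol to GENCODE transcripts for 99.6%, 99.0% and 96.5% of the genes. The part of length, GC content and level in the calls was not tested.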

How the data were processed

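RNA from MDA-MB-231 cells was sequenced as strand-specific paired-end mRNA libraries. The deposited values are raw counts per gene, which the authors made against hg19. The submitters' processing notes name FastQC 0.11.4, Trim Galore 0.3.7, STAR 2.5.3a, Subread 1.5.2 and edgeR 3.22.3. Counts of all 18 libraries of batch 2 at 48 h, in 6 groups of 3, were fitted with edgeR 4.0.16 in R 4.3.3 (filterByExpr, TMM, quasi-likelihood F-test, no block), which left 15115 of 27978 genes. Totals were 17673537 to 25453736 counts, and the common biological coefficient of variation was 0.048. N_Tri was contrasted with the mean of the 3 other mixtures, with each of them and with CKI. P-values were adjusted over all 15115 genes by the Benjamini-Hochberg method and a gene was called below 0.05, SE being the absolute log2 fold change over the square root of F, and levels are TMM-adjusted CPM. The labels give 3 biological replicates, and nothing says whether these were separate cultures, so p-values measure the spread between these libraries, which may be technical. No pair of replicates agreed within sampling noise (chi-square per gene at least 1.97).

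The rule for named genes took the 12 largest rises and falls against the mean with at least 5 CPM and the same sign in each comparison, the 3 largest rises and falls in each single comparison, up to 4 members with the smallest p of each of 34 gene lists, the 10 genes with the largest smallest difference among those called against all 3, and 6 genes that respond to CKI. Members and lists were chosen with earlier results of these data known. Alternatives were other scalings (RLE, library sizes, DESeq2 1.42.0), filters, designs and libraries left out. On simulated counts for 15115 genes, the contrast with the mean recovered 74% of genes changed 1.5-fold and 88% of those changed 2-fold. The count against all 3 recovered 66% and 84%, and the contrast with N_Nme 67% and 87%. Only N_Tri differed there, in 100 genes per fold change, unlike in these data, and changes under 1.5-fold were not simulated. Coordinates and sequences are not given, since the reference at hand was of another build. Some genes that the rule takes are not reported here.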

Additional observations from a re-analysis of the deposited data

How the results depend on the processing

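With edgeR, a threshold of 1 on the log2 fold change left 82 genes against the mean of the 3 mixtures, 1154 against N_Omt, 173 against N_Mac, 59 against N_Nme, 2449 against CKI and 7 called against all 3. With the 9 other libraries as 1 group, whose spread then includes that between mixtures, 572 genes were called against the mean, 202 higher and 370 lower. Leaving out 1 library at a time gave 4244 to 6245 genes against the mean, 8207 to 8486 against N_Omt, 4376 to 5378 against N_Mac, 1798 to 3885 against N_Nme (1798 without N_Nme 1 and 1801 without N_Tri 3), 10223 to 10355 against CKI and 257 to 1099 against all 3. The next alternatives were chosen after seeing the data. Without both N_Nme 3 and N_Omt 3, 1048 genes were called against all 3. With these as the only libraries of their groups, 8 were called against all 3 and 248 against N_Nme. With N_Nme 1, 2 or 3 as the only library of its group the counts against all 3 were 1203, 418 and 17, and those against N_Nme 3401, 1708 and 341. The cause was not tested. Among genes called against all 3, the split of 236 higher and 414 lower was 337 and 316 with RLE, 343 and 307 with library sizes and 314 and 290 with DESeq2, and against N_Nme the split of 1362 and 1733 was 1742 and 1414, 1582 and 1476 and 1645 and 1290. These scalings moved the median of all genes by at most 0.0516 (log2). Same-numbered replicates of N_Tri and of N_Omt, N_Mac, N_Nme or CKI did not vary together (correlations of -0.0315 to 0.0299). Other pairs of groups were not compared, and N_Nme 3 and N_Omt 3 share both a number and low counts of genes such as GREM1 and DCN. A replicate block gave 5889 genes against the mean and 729 against all 3.

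Of 4369 single-gene values under alternatives, 4100 kept their direction and call, 246 lost the call and 23 changed sign. Only genes already called in the main fit were followed, most of them picked for large differences or small p-values. Their share kept is therefore no measure of how stable calls are over all genes. With the mean of N_Mac and N_Nme in place of the 3 mixtures, which drops N_Omt, the log2 fold changes were above 0 where they had been below it for AHRR (0.0115), SLC30A1 (0.16), CDKN1C (0.0866), HIST1H1C (0.0582), HIST1H2BK (0.27), HIST1H2BD (0.25), FOSB (0.18), CTGF (0.12), AJUBA (0.0108), TIMP3 (0.0657) and CD44 (0.0222), and below 0 where they had been above it for HSP90B1 (-0.083), BNIP3 (-0.0339), RRM2 (-0.19), CDC6 (-0.27), TOP2A (-0.12), MKI67 (-0.51), CENPF (-0.0237), CRIM1 (-0.0387), MMP1 (-0.078) and CEMIP (-0.0904). MKI67 was at -0.00652 with the 9 libraries as 1 group, and MMP2 at 0.32 with N_Nme 3 and N_Omt 3 as the only libraries of their groups, where it rests on 1 and 2 reads and gives no size of a change. Depth limits all genes with so few reads.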

Other observations

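The list counts below stand beside 59.6%, 36.8% and 20.5% of all genes tested, called in either direction against N_Omt, N_Mac and N_Nme. Of 14 respiratory chain genes there were 1 higher and 8 lower against N_Omt, 0 and 11 against N_Mac and 1 and 1 against N_Nme, and ATP5F1B, the catalytic subunit of ATP synthase, was called lower against all 3, though under none of the 3 other scalings. Of 15 genes of glycolysis and hypoxia there were 7 higher and 3 lower against N_Omt, 2 and 5 against N_Mac and 5 and 1 against N_Nme, with ALDOC at 13.2, 14.0 and 16.8 CPM in N_Tri and 33.5, 31.0 and 29.3 in N_Mac. Of 14 targets of NRF2, the regulator of antioxidant genes, there were 3 higher and 9 lower against N_Omt, 3 and 5 against N_Mac and 1 and 3 against N_Nme, with AKR1C1 at 51.0, 46.8 and 46.5 CPM in N_Tri and 186, 193 and 184 in N_Omt, and the drug exporter ABCC3 was lower against all 3, at 28.4 CPM against 45.5, 34.3 and 36.7 (called in 21 of 24 other settings). Of 9 AHR targets there were 3 higher and 4 lower against N_Omt, 1 and 1 against N_Mac and 3 and 1 against N_Nme. Of 13 genes of the ATF4 and CHOP branch there were 1 higher and 6 lower against N_Omt, 2 and 2 against N_Mac and 0 and 2 against N_Nme. Of 5 metallothionein and zinc exporter genes there were 3 higher and 1 lower against N_Omt, 2 and 1 against N_Mac and 0 and 0 against N_Nme. Of 13 lysosome and autophagy genes there were 3 higher and 7 lower against N_Omt, 2 and 5 against N_Mac and 2 and 1 against N_Nme, and their regulator TFEB was higher against all 3, a call kept in 12 of the 24 other settings and 6 of 12 with 1 library left out. Of 9 fatty acid synthesis genes there were 1 higher and 7 lower against N_Omt, 2 and 6 against N_Mac and 1 and 1 against N_Nme.

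Growth control and adhesion lists were mixed. There were 2 higher and 5 lower against N_Omt, 3 and 5 against N_Mac and 2 and 1 against N_Nme of 12 G1 regulators, where CDKN1A, the p21 inhibitor of cyclin-dependent kinases, was at 630.0, 615 and 664 CPM in N_Tri and 1270, 1198 and 1196 in N_Omt, and 2 higher and 3 lower against N_Omt, 2 and 1 against N_Mac and 2 and 0 against N_Nme of 10 p53 targets. Histone transcripts were 0 higher and 6 lower against N_Omt, 2 and 1 against N_Mac and 3 and 0 against N_Nme, of 7. ERK output genes were 3 higher and 4 lower against N_Omt, 3 and 1 against N_Mac and 6 and 0 against N_Nme, of 10. YAP and TEAD targets were 3 higher and 5 lower against N_Omt, 5 and 1 against N_Mac and 3 and 2 against N_Nme, of 12, and SRF and actin genes 5 higher and 6 lower against N_Omt, 3 and 3 against N_Mac and 1 and 3 against N_Nme, of 16. Integrin and focal adhesion genes were 4 higher and 8 lower against N_Omt, 7 and 3 against N_Mac and 2 and 1 against N_Nme, of 15, and matrix and protease genes 6 higher and 7 lower against N_Omt, 1 and 7 against N_Mac and 6 and 2 against N_Nme, of 15, with the collagenase MMP1 at 373, 359 and 382 CPM in N_Tri and 93.5, 97.1 and 96.7 in N_Omt. EMT genes and cadherins were 0 higher and 6 lower against N_Omt, 1 and 2 against N_Mac and 1 and 0 against N_Nme, of 9. TGF-beta pathway genes were 3 higher and 8 lower against N_Omt, 5 and 2 against N_Mac and 4 and 0 against N_Nme, of 13, and clock genes 3 higher and 7 lower against N_Omt, 4 and 2 against N_Mac and 4 and 1 against N_Nme, of 13, with BHLHE41, a repressor of the clock, higher against all 3 at 34.5 CPM against 23.0, 26.3 and 29.1 (called in 20 of 24 other settings). The 6 CKI-responsive genes were 3 higher and 3 lower against N_Omt, 0 and 3 against N_Mac and 2 and 0 against N_Nme. Markers of the line were 1 higher and 5 lower against N_Omt, 2 and 1 against N_Mac and 2 and 3 against N_Nme, of 8, and luminal markers 0 higher and 4 lower against N_Omt, 2 and 0 against N_Mac and 2 and 0 against N_Nme, of 6. Counted in the same way, the genes that set one mixture apart from each of the other 3 were 236 higher and 414 lower for N_Tri, 2833 and 3256 for N_Omt, 530 and 507 for N_Mac and 479 and 431 for N_Nme.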
